A study of Mus musculus with 2 samples.

Results

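The forkhead genes encode transcription factors that share a winged-helix DNA-binding domain, and 29 of them had a value among the 13869 genes measured in luminal mammary cells. They were found by symbol, as every gene whose name is Fox followed by a letter from a to s and a number, on probe sets annotated to 1 gene alone. The RefSeq gene table of GRCm38.p6 holds 44 mouse genes with such a symbol. The other 15, Foxc1, Foxn2, Foxn3, Foxo3 and Foxo4 among them, are not analysed here. Foxred1, an oxidoreductase, and Foxl2os, an antisense transcript, do not meet the symbol rule and were left out.

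Luminal epithelial cells were sorted from the pooled mammary glands of 3 virgin female mice, 5 months old and on an FVB background, into cells with high (Venus High) and with low or no (Venus Low) Venus fluorescence. All 3 mice carried the Tbx3-Venus knock-in on 1 allele, in which the Tbx3 locus drives the yellow fluorescent protein and that allele makes no Tbx3, so both populations came from Tbx3 heterozygotes and no wildtype cells were measured. Each population gave 1 Affymetrix GeneChip mouse array. There are no replicates and no p-values, and precision is limited by the number of arrays. The comparison asks how luminal cells with an active Tbx3 locus differ from luminal cells in which it is little active.

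Values are log2 array signals with a floor at a signal of 10. For a gene at the floor in Venus Low cells alone the difference is a lower bound, and for one at the floor in both populations there is none to give. In the table used here 0 probe sets are lower in Venus High cells, so every difference below is 0 or positive by construction, and a gene lower in Venus High cells cannot be seen. The authors normalized and centred each sample, to a target not named in the sources used here. A further median centring of the arrays takes 0.66 off the log2 difference of every gene clear of the floor, and less near it. This shift had to be positive in such a table, so the sign it gives to a smaller difference says nothing about that gene. In RNA from a pool of cells, fewer cells that express a gene and less RNA per cell cannot be told apart. Tbx3, whose reporter defined the sort, had log2 signals of 8.72 in Venus High against 3.62 in Venus Low cells.

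Forkhead factors bind a short core sequence on DNA, and members of the FoxA group, called pioneer factors, can bind it in closed chromatin and open it for other factors. In mammary epithelium FOXA1 is known for opening sites used by the estrogen receptor, and it is needed for the growth of mouse mammary ducts. FoxO factors are held out of the nucleus by insulin and AKT signaling, FoxP factors are mostly repressors, FOXM1 drives genes of mitosis, and FOXJ1 drives the genes of motile cilia.

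Foxa1 was the 1 forkhead gene that was higher by 4-fold or more in luminal Venus High cells, among 5 that passed a signal of 100 on either array. The same rule was met by 8.58% of the 3847 genes that reached this signal (330 genes). Foxa1 had a log2 signal of 11.81 in Venus High against 7.76 in Venus Low cells, or linear signals of 3592 in Venus High against 216 in Venus Low cells. The difference was 4.05 on the log2 scale, or 16.6-fold, on its 1 probe set in the table. Both values lie well above the floor, so the difference was also 4.05 with the floor raised to a signal of 100. It was 3.39 after median centring and 3.40 after quantile normalization. Foxa1 ranked 101 among the 3847 genes by the size of the difference. Its signal in Venus Low cells was 21.6 times the floor, so Foxa1 RNA was measured in both populations.

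The bases upstream of Foxa1 and of 2 other members measured in both populations, Foxj3 and Foxk2, are shown because they differ in base composition and in the binding words they hold. Each window is the 250 bases before 1 annotated start site, 5′ to 3′ in the direction of the gene, from RefSeq on GRCm38.p6. Capitals mark matches, on either strand, to the forkhead core word TGTTTAC or to the estrogen receptor half-site AGGTCA. A T-box half-site, AGGTGTG, which opens with the same letters as AGGTCA, and the TATA box word TATAAA were also searched and have no match in these 3 windows.
Foxa1, chr12:57546112-57546361, minus strand: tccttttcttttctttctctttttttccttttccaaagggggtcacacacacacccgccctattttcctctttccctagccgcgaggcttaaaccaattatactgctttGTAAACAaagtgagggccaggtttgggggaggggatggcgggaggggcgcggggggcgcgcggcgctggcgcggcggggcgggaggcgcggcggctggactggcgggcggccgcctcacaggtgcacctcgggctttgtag
Foxj3, chr4:119539411-119539660, plus strand: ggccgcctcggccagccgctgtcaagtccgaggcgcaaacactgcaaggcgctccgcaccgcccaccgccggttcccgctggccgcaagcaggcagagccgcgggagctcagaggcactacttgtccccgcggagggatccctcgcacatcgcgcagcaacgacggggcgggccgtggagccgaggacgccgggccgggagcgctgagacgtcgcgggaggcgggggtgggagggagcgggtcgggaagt
Foxk2, chr11:121259737-121259986, plus strand: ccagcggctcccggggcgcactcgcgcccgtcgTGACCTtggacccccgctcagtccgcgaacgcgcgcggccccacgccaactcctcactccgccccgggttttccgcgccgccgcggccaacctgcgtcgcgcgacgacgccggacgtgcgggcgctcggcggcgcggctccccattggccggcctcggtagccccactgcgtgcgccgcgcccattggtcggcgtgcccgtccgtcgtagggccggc

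The Foxa1 window holds 1 forkhead core word, read on the opposite strand as GTAAACA, which begins 141 bases before the start site. Of the 29 members, 19 have at least 1 of 24 start sites in the promoter table, and Foxa1 was the 1 member with this word in a window. Over all 32851 windows of the same length in that table, 3.17% hold it, 14.0% hold AGGTCA, 5.10% hold AGGTGTG and 12.4% hold TATAAA. The Foxk2 window holds AGGTCA on the opposite strand, beginning 217 bases before the start. Its GC content is 78.4%, with 48 CpG dinucleotides, against 74.4% and 34 for Foxj3 and 62.0% and 21 for Foxa1. The medians over all windows are 52.4% and 6. A match is a description of letters and not a binding site, and the arrays did not measure binding. The annotated Foxa1 gene reaches further upstream than this start site.

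**Figure D1:**
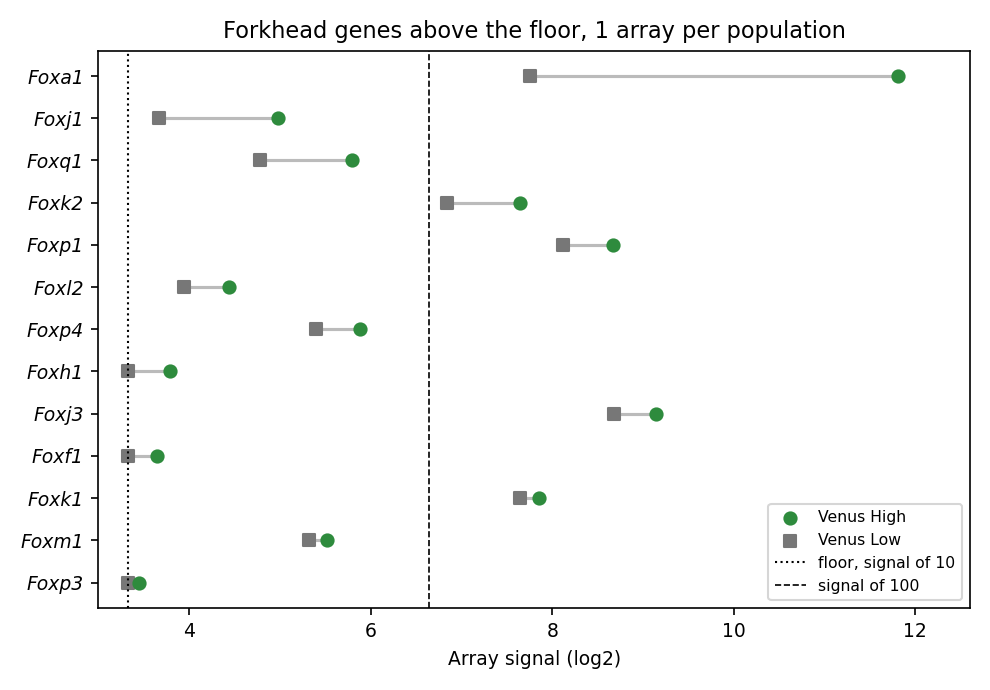
Array signal (log2, horizontal axis) of the 13 forkhead genes above the floor on at least 1 array, in luminal Venus High cells (circles, green) and Venus Low cells (squares, grey), ordered by difference, with 1 array for each. A dotted line stands at the floor and a dashed line at a signal of 100. Foxa1 has the widest gap, 4.05 on the log2 scale, and the 4 other genes right of the dashed line have gaps of 0.21 to 0.81.

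Foxa2, a factor of endoderm, and Foxa3, a factor of liver, were at the floor in both Venus High and Venus Low cells on 1 probe set each. Of the 3 FoxA genes, all 3 were represented in the table and 1 passed a signal of 100.

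The FoxP group had 1 member that passed a signal of 100. Foxp1, a transcriptional repressor with roles in B cell and lung development, had a log2 signal of 8.67 in Venus High against 8.12 in Venus Low cells. The difference of 0.55, or 1.46-fold, is the largest among its 5 probe sets, which ranged from 0.03 to 0.55 with a mean of 0.28 ± 0.18 (SD, n = 5 probe sets). On the probe set with the smallest difference the signals were 8.34 in Venus High against 8.31 in Venus Low cells. After the shift of median centring the value of the probe set used is -0.11. Foxp4, a related factor of lung and gut, stayed under a signal of 100, with 5.88 in Venus High against 5.40 in Venus Low cells, and its other probe set had 5.10 in Venus High against 4.70 in Venus Low cells. Foxp2, best known from brain and speech, was at the floor in both populations on all 5 of its probe sets. Foxp3, the factor of regulatory T cells, had 3.45 in Venus High cells and was at the floor in Venus Low cells.

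Foxk1 and Foxk2 encode closely related factors with a forkhead-associated domain, which are known to repress autophagy genes. Foxk2 had log2 signals of 7.65 in Venus High against 6.84 in Venus Low cells, a difference of 0.81, or 1.75-fold. On another probe set that also passed a signal of 100, Foxk2 had 7.73 in Venus High against 6.72 in Venus Low cells, a difference of 1.01. Its 2 dimmer probe sets differed by 1.19 and 0.21, so that the 4 probe sets had a mean difference of 0.80 ± 0.43 (SD, n = 4 probe sets). The value of Foxk2 was 0.15 after median centring and 0.12 after quantile normalization, both smaller than the SD of 0.31 among probe sets of 1 gene. Foxk1 had 7.85 in Venus High against 7.64 in Venus Low cells, a difference of 0.21 that lies under this SD, and its other probe set was at the floor in both populations. The SD does not hold variation between arrays, which cannot be measured here.

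Foxj3, a broadly expressed factor studied in muscle and male germ cells, had log2 signals of 9.14 in Venus High against 8.68 in Venus Low cells. The difference of 0.46 is 1.37-fold, or -0.20 after the same shift. Its other probe set was at the floor in both populations, as was Foxj2 on 1 probe set. For both Foxj3 and Foxk1, then, 1 probe set passed a signal of 100 and another in the same RNA lay at the floor. Foxj1, the regulator of motile cilia, had 4.98 in Venus High against 3.66 in Venus Low cells. This is a difference of 1.31 on the log2 scale with linear signals of 31.5 in Venus High against 12.7 in Venus Low cells, just above the floor of 10, and it is 0 with the floor at 100.

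**Figure D2:**
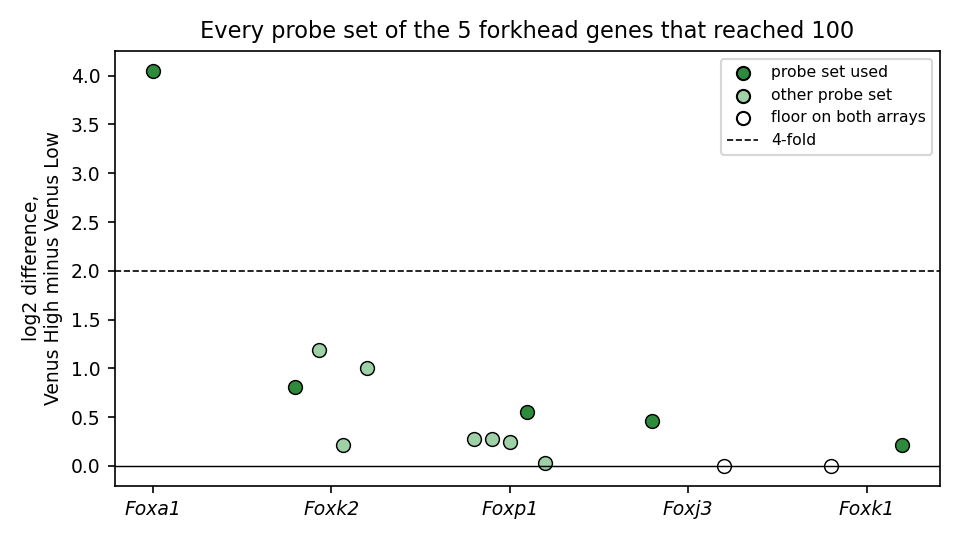
Difference in log2 signal (vertical axis, Venus High minus Venus Low) for each probe set in the table of the 5 forkhead genes that passed a signal of 100. Dark green marks the probe set used for the gene, light green its other probe sets, and open circles probe sets at the floor in both populations. The dashed line marks 4-fold. Foxa1 lies above it on its 1 probe set, and the probe sets of the other 4 genes lie between 0 and 1.19.

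The remaining members were near or at the floor. Foxq1, an epithelial factor known from hair and gut, had 5.80 in Venus High against 4.78 in Venus Low cells, a difference of 1.02 with linear signals of 55.5 in Venus High against 27.4 in Venus Low cells. Its other probe set had 5.41 in Venus High cells and was at the floor in Venus Low cells, a difference of at least 2.09. Neither probe set passed a signal of 100, and both differences are 0 with the floor at 100. Foxm1, which drives genes of mitosis, had 5.52 in Venus High against 5.32 in Venus Low cells on 1 probe set and was at the floor in both populations on 2 others. Foxl2, a factor of the ovary, had 4.44 in Venus High against 3.94 in Venus Low cells. Foxf1, a factor of lung and gut mesenchyme, and Foxh1, a partner of SMAD proteins in Nodal signaling, had 3.65 and 3.78 in Venus High cells and lay at the floor in Venus Low cells. The other probe sets of Foxl2, Foxf1 and Foxh1 were at the floor in both populations.

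In all, 16 of the 29 members were at the floor in both populations, or 55.2%, beside 48.2% of all 13869 genes. Foxo1, whose protein insulin signaling holds out of the nucleus, was the 1 FoxO gene in the table and was at the floor on 1 probe set. The mesenchymal factors Foxc2, Foxf2 and Foxl1 were at the floor, as were Foxb1, Foxb2, Foxd1, Foxd2, Foxd3, Foxe3, Foxn1 and Foxn4, which are known mainly from neural, kidney, lens or thymic tissue. With Foxa2, Foxa3, Foxj2 and Foxp2 these make up the 16. A further 3 members, Foxf1, Foxh1 and Foxp3, lay at the floor in Venus Low cells alone. Of the 52 probe sets of the 29 members, 30 were at the floor in both populations.

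Several forkhead genes lie next to each other in the genome. Foxq1, Foxf2 and Foxc1 are adjacent on chromosome 13. Of these, Foxq1 was above the floor in both populations and Foxf2, on 2 probe sets, was at the floor in both. On chromosome 8 Foxf1, Foxc2 and Foxl1 lie together, with 1 other coding gene between the first pair. Foxf1 was the 1 with a value above the floor, in Venus High cells alone and on 1 of its 2 probe sets. Foxd2 and Foxe3, adjacent on chromosome 4, were both at the floor in both populations. Foxa1 on chromosome 12 has no forkhead gene within 5 coding genes.

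**Figure D3:**
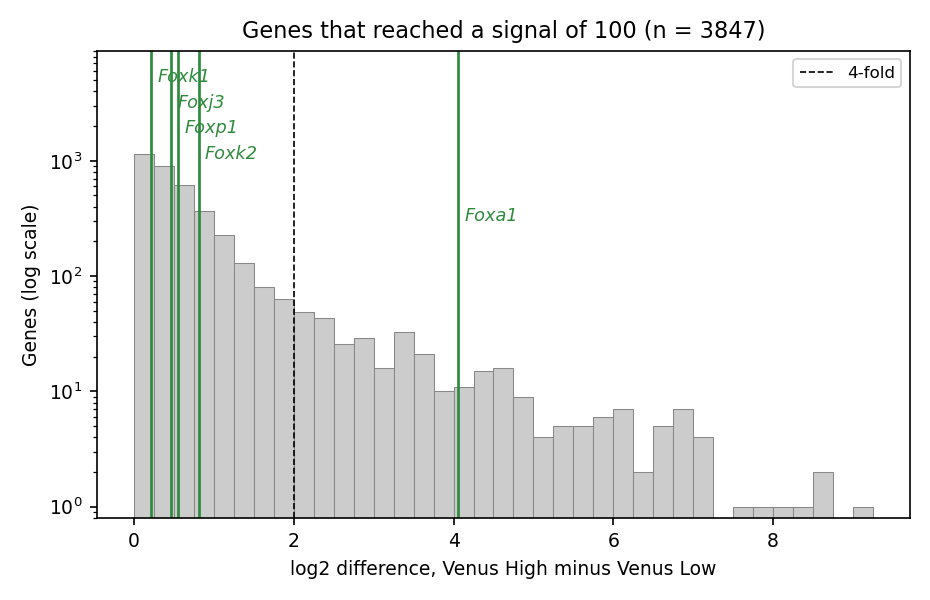
Distribution of log2 differences (horizontal axis, Venus High minus Venus Low) over the 3847 genes that passed a signal of 100, with the number of genes on a log scale (vertical axis). Green lines mark the 5 forkhead genes among them, and the dashed line marks 4-fold. Foxa1 lies at 4.05, and Foxk1, Foxj3, Foxp1 and Foxk2 lie between 0.21 and 0.81.

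The median log2 difference of the 5 members that passed a signal of 100 was 0.55, beside 0.46 for the 3842 other genes that did. The differences of Foxp1 and Foxj3 lie close to that median, at ranks 1685 and 1942 of 3847. Foxk2 ranked 1105 and Foxk1 2867. Of the 5 members, 1 was higher by 2-fold or more, beside 21.6% of all genes that reached this signal. This count depends on the probe set used for Foxk2. Its difference was 1.01 on its other probe set that passed a signal of 100, and 1.06 with the median over its probe sets. After median centring the median of the 5 members was -0.11 and that of all genes was -0.24.

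Genes that work with Foxa1 at estrogen receptor sites, or are known to answer to the receptor, were listed with earlier results of these data known. Of 22 such genes, 13 were represented in the table, 11 passed a signal of 100 and 5 were higher by 4-fold or more in Venus High cells, a rule met by 8.58% of all genes that passed this signal. Among the 5, Cited1, Greb1, Myb and Pgr passed the signal of 100 in Venus High cells alone. With a list drawn up as stated, the count beside that share is a description and not a test. The count was 4 under each of the 6 alternatives run for this list. The receptor gene Esr1 had log2 signals of 10.62 in Venus High against 7.64 in Venus Low cells, so that Esr1, like Foxa1, was well above the floor in both populations. Its difference of 2.98 did not change with the floor at 100. The progesterone receptor gene Pgr had 11.93 in Venus High against 5.05 in Venus Low cells. Cited1, a co-activator, had 11.28 in Venus High cells and was at the floor in Venus Low cells. Myb, a factor of estrogen-responsive cells, had 9.29 in Venus High against 4.32 in Venus Low cells. Greb1, an estrogen receptor cofactor, had 6.71 in Venus High cells and was at the floor in Venus Low cells, and its difference of at least 3.38 is 0.06 with the floor at 100. Gata3, a factor of luminal cells that acts with Foxa1 and Esr1, had 10.28 in Venus High against 9.44 in Venus Low cells, a difference of 0.84. The differences of Nrip1, a corepressor, Tfap2b, an AP-2 factor, and the keratin Krt8 were 0.06, 0.08 and 0.09. The median of the 11 was 0.84. Spdef, which stayed under a signal of 100, had 5.40 in Venus High cells and was at the floor in Venus Low cells. The other 9 genes, Areg, Krt18, Prlr and Tfap2c among them, are not analysed here.

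Genes that control FoxO factors make up the next list. Of 26 listed regulators, 14 were represented in the table and 9 passed a signal of 100. Of the 9, 0 were higher by 4-fold or more, beside 8.58% of all genes that passed this signal. The median difference was 0.39, beside 0.46 for all those genes. Akt1, the kinase that marks FoxO proteins for export from the nucleus, had 8.54 in Venus High against 7.48 in Venus Low cells, a difference of 1.06, or 2.08-fold. Sgk3, a related kinase that stayed under a signal of 100, had linear signals of 84.3 in Venus High against 28.6 in Venus Low cells, a log2 difference of 1.56 that is 0 with the floor at 100. The adaptors Ywhag and Ywhaz, which hold phosphorylated FoxO proteins, differed by 0.57 and 0.39, the acetyltransferase gene Ep300 by 0.47 and Akt2 by 0.45. The smallest differences were those of the kinase gene Stk4 (0.08) and the adaptors Ywhae (0.10) and Ywhab (0.19). The other 12, Igf1r among them, are not analysed here.

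Of 35 listed FoxO target genes, 19 were represented in the table and 10 passed a signal of 100. Of the 10, 1 was higher by 4-fold or more, near the 8.58% of all genes that passed this signal. This was Klf2, a zinc-finger factor, with 11.16 in Venus High against 8.73 in Venus Low cells. Its difference of 2.43 is below 4-fold after median centring or quantile normalization. Sesn1, a stress-induced inhibitor of mTOR signaling, had 7.53 in Venus High against 6.43 in Venus Low cells. Gadd45a, a gene of growth arrest, differed by 0.88, the repressor gene Bcl6 by 0.76 and the mitophagy gene Bnip3 by 0.40. Map1lc3b, a gene of autophagy, Rictor, a subunit of an mTOR complex, and Cdkn1a, the CDK inhibitor p21, had the smallest differences, 0.05, 0.08 and 0.14. The median of the 10 was 0.35. Igfbp1, Pck1 and G6pc, which FoxO1 controls in liver, were at the floor in both populations, as were Ccnd2, Fasl, Pik3ca and Trim63. The other 16 are not analysed here, and with FoxO genes themselves at the floor or outside the analysis, no direction is given for this list.

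Foxm1 lay below a signal of 100. Of 24 listed targets, genes of mitosis, 20 were represented in the table. Of these, 6 passed a signal of 100, beside 27.7% of all 13869 genes. Of the 6, 0 were higher by 4-fold or more, beside 8.58% of all genes that passed this signal, and the median was 0.35. Cdk1, the kinase that starts mitosis, had 7.63 in Venus High against 6.48 in Venus Low cells, a difference of 1.15. Top2a, a topoisomerase of dividing cells, had 8.14 in Venus High against 7.43 in Venus Low cells. Ccnb2, a B-type cyclin, differed by 0.39, and Cdc20, Birc5 and Cenpa, which act in chromosome segregation, by 0.31, 0.30 and 0.13. Of the 20, 13 were above the floor and under a signal of 100, and Cenpf was at the floor in both populations.

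The last list holds genes of the motile cilium that FOXJ1 is known to switch on. Of 31 listed genes, 25 were represented in the table. Of these, 14 were at the floor in both populations, beside 48.2% of all 13869 genes. Dnah5, Hydin, Spag6 and Tekt1, which encode parts of the ciliary axoneme, were among the 14. The 3 that passed a signal of 100 also serve cells without motile cilia. Tuba1a, an alpha-tubulin, had 10.87 in Venus High against 9.49 in Venus Low cells. Tubb4b, a beta-tubulin, had 11.31 in Venus High against 10.67 in Venus Low cells, and Ift172, a gene of ciliary transport, had 6.86 in Venus High against 6.47 in Venus Low cells. Rsph9, a radial spoke gene, Rfx2, a partner factor of FOXJ1, and Dnah11, a dynein gene, stayed under a signal of 100, with differences of 1.39, 1.38 and 1.24 that are all 0 with the floor at 100.

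**Figure D4:**
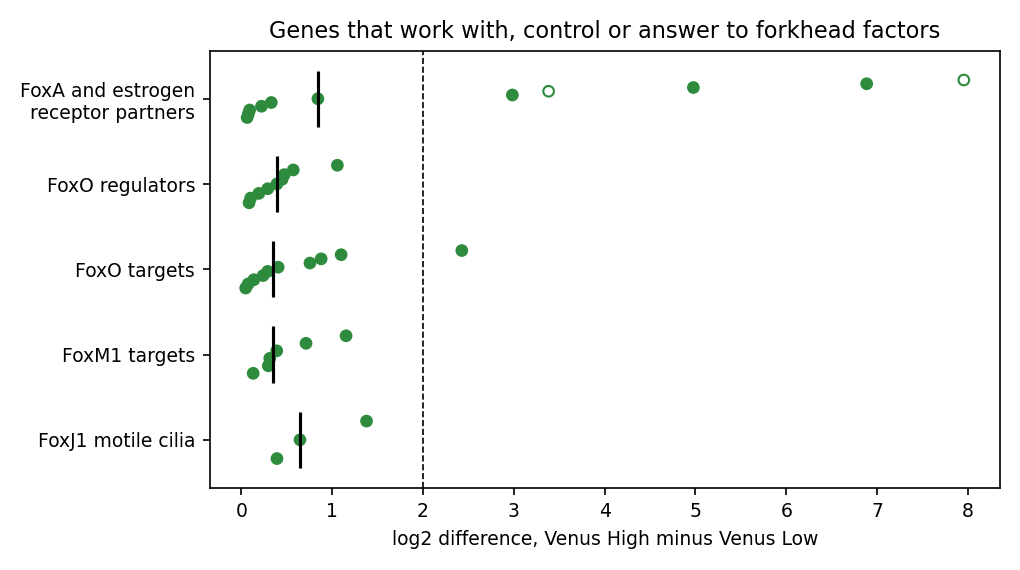
Difference in log2 signal (horizontal axis, Venus High minus Venus Low) of the genes that passed a signal of 100 in 5 lists of genes that work with, control or answer to forkhead factors. Each circle is a gene, open where the gene was at the floor in Venus Low cells, black bars are medians, and the dashed line marks 4-fold. The FoxA and estrogen receptor list has 5 genes beyond 4-fold, the FoxO target list has 1, and the 3 other lists have 0. Of all genes that passed a signal of 100, 8.58% lie beyond 4-fold. The lists were drawn up with earlier results of these data known, so the counts are descriptive.

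Markers of other cell types give the setting for members known from those cells. Of 9 listed hormone-sensing markers, 6 were in the table, Esr1, Pgr, Cited1, Prom1, Wnt4 and Tbx3. All 6 were higher by 4-fold or more in Venus High cells, beside 8.58% of all genes that passed a signal of 100. Esr1, Pgr and Cited1 also belong to the FoxA and estrogen receptor list, so the counts of these lists are not separate results. All but Esr1 passed a signal of 100 in Venus High cells alone. Tbx3 was bound to be higher because its reporter defined the sort, and the table can show no marker lower in Venus High cells. The other 3, Areg, Ly6a and Prlr, are not analysed here. All 9 alveolar markers, Elf5 and Kit among them, are not analysed here, so the table holds no alveolar gene to set beside Foxa1. The luminal keratin Krt8 had 13.22 in Venus High against 13.13 in Venus Low cells. All 5 basal markers in the table, Krt14 and Acta2 among them, were at the floor in both populations, beside 48.2% of all 13869 genes. This holds for the probe sets in the table, where a probe set lower in Venus High cells cannot be seen. Of the 10 leukocyte markers in the table, Foxp3 itself among them, 8 were at the floor in both populations, Ptprc and Cd3e among them, and the summed signal of the 10 was 109 in Venus High against 102 in Venus Low cells, where the floor alone gives 10 for each gene. Beside the mesenchymal factors, the 6 fibroblast markers summed to 120 in Venus High against 82.5 in Venus Low cells, with Dcn at 6.01 in Venus High against 4.89 in Venus Low cells and Col3a1, Lum and Pdgfrb at the floor. Of 4 endothelial markers in the table, Eng had 7.13 in Venus High against 4.83 in Venus Low cells. Its difference of 2.30 meets the 4-fold rule and is 0.49 with the floor at 100. Kdr had 3.78 in Venus High cells and was at the floor in Venus Low cells, and Cdh5 and Tek were at the floor in both populations. The part of these cells in the forkhead values was not tested.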

How the data were processed

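Total RNA from 200000 sorted cells per population, with an RNA integrity number above 9.4 per the labels, was labelled from 250 ng and hybridized on 1 array per population. The deposited values are log2 signals. After the log2 step the authors normalized and centred each sample in BRB Array software. MAS5 is named by the submitters' processing notes. The lowest value in the table is the log2 of 10, taken as a floor. The scaling target was not given in the sources used here. Value columns of other samples numbered 0.

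Of 29338 probe sets, 22223 have 1 gene symbol in the platform annotation, 602 have several and 6513 are not listed. Of the 22223, 22060 had a gene ID in RefSeq's gene table for GRCm38.p6, and 0 symbols differed from it. The probe set with the highest mean over both arrays stood for its gene. The call rule was a log2 difference of 2 or more together with a signal of 100 or more on the higher array. The spread used for single values is the pooled SD of 0.31 among probe sets of 1 gene, over 1062 genes with at least 2 that passed a signal of 100. It comes from a one-sided table, so it may be too small. It measures disagreement between probe sets on the same arrays, and not variation between arrays, sorts or mice.

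The rule named every forkhead gene and, of each list, up to 5 members with the largest and 3 with the smallest differences among those that passed a signal of 100. Other genes were named after their values were seen. The members and the lists were chosen with earlier results of these data known. Results were recomputed after median centring of the arrays or quantile normalization, with floors of 32 and 100, with the median over probe sets, without probe sets of the types _a_at, _s_at and _x_at, with minimum signals of 50, 200 and none, with thresholds of 2-fold and 8-fold, and with symbols as annotated. Scripts were tested on simulated data and used numpy 2.4.6, pandas 2.3.3 and matplotlib 3.10.9 under Python 3.11.15.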

Additional observations from a re-analysis of the deposited data

How the results depend on the processing

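The call of Foxa1 as the 1 forkhead gene higher by 4-fold or more in Venus High cells held under all 12 alternatives run for it. Most of them could not move the value of Foxa1 itself, which has 1 probe set and signals above every floor and minimum used. Median centring and quantile normalization could, and gave 3.39 and 3.40. The 8-fold threshold was the 1 stricter threshold. Median centring and quantile normalization move the median of all genes below 0 in a table with 0 probe sets lower in Venus High cells, so the signs they give to small differences say nothing about single genes. Median centring gave log2 differences of -0.11 for Foxp1, -0.20 for Foxj3 and -0.44 for Foxk1, and quantile normalization gave -0.12, -0.22 and -0.45. The median of the forkhead genes that passed a signal of 100 was then -0.11 and -0.12, in place of 0.55. With the median over each gene's probe sets, 3 forkhead genes reached this signal and the median was 1.06, and with no signal minimum all 29 counted and it was 0.

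Median centring gave a median of -0.073 for the FoxA and estrogen receptor list, -0.27 for FoxO regulators, -0.31 for FoxO targets, -0.31 for FoxM1 targets and -0.014 for motile cilia genes. Quantile normalization gave 0.075, -0.24, -0.28, -0.33 and -0.062 for the same lists, and both left 0 FoxO targets higher by 4-fold or more. The number of FoxA and estrogen receptor genes higher by 4-fold or more was 4, in place of 5, under median centring, quantile normalization, floors of 32 and 100, the median over probe sets, and without the probe set types _x_at, _s_at and _a_at. With the floor at 100 the median of the FoxA and estrogen receptor list was 0.22. Under median centring the medians of the FoxO, FoxM1 and motile cilia lists fell by the 0.66 of the centring itself. That of the FoxA and estrogen receptor list fell further. The other shifts were not traced to single genes. The call rule was met by 5.46% of all genes that reached the signal minimum under median centring, 5.22% under quantile normalization and 4.42% with the floor at 100.

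In all, 98 of 127 values under alternatives stayed on the same side and within the spread, or within 1.5 times for counts. Of the rest, 17 changed sign and 12 moved beyond these limits. Many of the 98 could not move, because 0 symbols changed and a raised floor cannot alter signals above it. The total is therefore not a measure of robustness. No paired analysis was possible because each population has 1 array, and for the same reason none was left out in turn. Low signals limit the members under a signal of 100, whose differences depend on the floor.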
